A study of Mus musculus with 4 samples.

Results

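The enzymes that turn arachidonic acid into prostaglandins and leukotrienes were examined in activated mouse mast cells that lacked Pac1 and in wild-type mast cells. Members were taken as probe sets of the expression table with a single gene symbol, by the platform annotation, from a list of 10 genes that covers phospholipase A2, the cyclooxygenases, the prostaglandin synthases and the 5-lipoxygenase pathway. Of the 10 genes, 8 had at least 1 such probe set (12 probe sets in all), out of 12393 genes represented in the table. Ptgs1 and Alox5, the genes of cyclooxygenase-1 and of 5-lipoxygenase, had no probe set by this rule and were not analysed here.

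The groups were Pac1-/- mast cells (2 cultures) and wild-type Pac1+/+ mast cells (2 cultures), numbered replicates 1 and 2 in either genotype, with 1 Affymetrix mouse 430A array per culture. Pac1 is a phosphatase of MAP kinases encoded by Dusp2; the labels give no further detail of the deleted allele. All cultures came from bone marrow of mice aged 8 to 12 weeks, were kept 4 to 6 weeks with interleukin-3 at 5 ng/ml, were loaded for 18 h with IgE against dinitrophenyl at 100 ng/ml and were then triggered for 2 h with the antigen DNP-HSA at 20 ng/ml. No untriggered culture was among the arrays, so induction by antigen could not be measured.

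Eicosanoids are lipid mediators made on demand. Cytosolic phospholipase A2 frees arachidonic acid from membranes. Cyclooxygenases convert it to prostaglandin H2, from which terminal synthases make prostaglandin D2, prostaglandin E2 or thromboxane A2. In the other branch, 5-lipoxygenase and its activating protein FLAP make leukotriene A4, which leukotriene C4 synthase joins to glutathione and leukotriene A4 hydrolase converts to leukotriene B4. Prostaglandin D2 and leukotriene C4 are the eicosanoids for which mast cells activated through FceRI, the high-affinity IgE receptor, are best known.

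The promoters of 4 members are printed for the contrasts described below. Ltc4s had the largest genotype difference among the members, Tbxas1 and Lta4h had the largest difference between the replicate numbers, and Ptgs2 is the member best known as an early response gene. The choice was made after the values were seen. Each window holds 250 bases before and 50 bases after the start of the gene as RefSeq gives it on GRCm38.p6, written 5′ to 3′ on the strand of the gene, and capitals mark every match of 5 short motifs searched on both strands.
Ltc4s, chr11:50238483-50238782, minus strand: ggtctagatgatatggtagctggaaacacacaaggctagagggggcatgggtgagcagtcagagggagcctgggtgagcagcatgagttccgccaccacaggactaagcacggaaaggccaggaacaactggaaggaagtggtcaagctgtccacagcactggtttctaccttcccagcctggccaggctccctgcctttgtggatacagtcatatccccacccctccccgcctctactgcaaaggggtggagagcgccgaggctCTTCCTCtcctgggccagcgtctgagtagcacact
Tbxas1, chr6:38918736-38919035, plus strand: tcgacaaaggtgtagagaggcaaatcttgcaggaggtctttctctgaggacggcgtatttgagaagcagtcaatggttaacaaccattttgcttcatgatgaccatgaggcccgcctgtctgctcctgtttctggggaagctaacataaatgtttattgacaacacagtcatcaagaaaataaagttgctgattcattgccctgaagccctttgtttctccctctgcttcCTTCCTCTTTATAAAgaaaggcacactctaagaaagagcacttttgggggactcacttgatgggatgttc
Lta4h, chr10:93453146-93453445, plus strand: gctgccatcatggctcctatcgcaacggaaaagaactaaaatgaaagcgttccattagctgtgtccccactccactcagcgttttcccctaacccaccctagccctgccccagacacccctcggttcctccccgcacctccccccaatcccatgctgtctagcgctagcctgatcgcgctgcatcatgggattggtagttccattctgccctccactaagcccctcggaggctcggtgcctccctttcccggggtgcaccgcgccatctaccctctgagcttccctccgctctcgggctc
Ptgs2, chr1:150099781-150100080, plus strand: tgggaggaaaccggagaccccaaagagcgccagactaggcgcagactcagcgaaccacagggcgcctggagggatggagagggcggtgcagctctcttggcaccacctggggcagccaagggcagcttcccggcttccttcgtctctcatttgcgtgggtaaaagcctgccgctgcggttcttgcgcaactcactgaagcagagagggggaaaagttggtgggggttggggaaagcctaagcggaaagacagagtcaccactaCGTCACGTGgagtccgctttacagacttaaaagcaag

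The motifs were the TATA box TATAAA, the E-box CACGTG that MITF and related factors bind, the GATA motif AGATAA, the PU.1 motif GAGGAAG and the CRE core TGACG of CREB and ATF factors. Over all 32851 promoter windows of this length, these letters occurred in 13.6%, 7.15%, 11.2%, 13.6% and 20.8% in the order given. The Ltc4s window had 1 match, to the PU.1 motif, at bases 266 to 272 counted from the 5′ end of the window. The Tbxas1 window had a PU.1 match at bases 231 to 237 that adjoins overlapping TATA box matches on both strands at bases 238 to 245. In the Ptgs2 window a CRE core at bases 264 to 268 overlapped an E-box at bases 267 to 272. The PU.1 and CRE matches in these windows read on the opposite strand of the gene. The Lta4h window held none of these letters. Of the other genes on the list with a window, Hpgds and Ptgs1 had a PU.1 match, Ptges and Alox5 had none of the motifs, while Pla2g4a had a TATA box match in 1 of its 2 windows. Pla2g4a and Ptgs2 are neighbouring protein-coding genes on chromosome 1.

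Intensities are linear values in the authors' scaling, quantile normalised between the arrays for this work, and a value below 16 was set to 16 before log2 was taken. A probe set was tested for a genotype difference where its mean over the 4 arrays was at least 100, the minimum stated in the series' design text. Probe sets differ in how brightly they bind, so a level is compared between arrays and not between genes. The deposited table gives no detection call, and 100 is used below as the mark of a readable signal. Of the 8 genes, 4 were tested (Pla2g4a, Tbxas1, Alox5ap and the brightest Lta4h probe set) and 4 were below the minimum (Ptgs2, Ptges, Hpgds and Ltc4s). Hpgds, with a mean of 99.4, and Ltc4s, with a mean of 93.2, lay just outside it. Pac1-/- replicate 2 stood apart from the other arrays. As deposited, the median intensity was 40.6 and 24.5 on Pac1-/- replicates 1 and 2, against 49.3 and 48.0 on wild-type replicates 1 and 2, and 33.0% and 27.7% of probe sets read at 100 or more on the Pac1-/- arrays, against 33.9% and 33.6% on the wild-type arrays.

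The 8 genes fell into 3 patterns. Alox5ap and Pla2g4a read at 100 or more on all 4 arrays, as did 21.1% of the 22626 probe sets of the table. Ptgs2 and Ptges read below 100 on every array, and so did 2 of the 3 Lta4h probe sets. Hpgds, Tbxas1, Ltc4s and the brightest Lta4h probe set read at 100 or more on 2 arrays each. For Hpgds, Tbxas1 and Lta4h these were the replicate 2 arrays of both genotypes, and for Ltc4s they were the wild-type arrays.

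**Figure D1:**
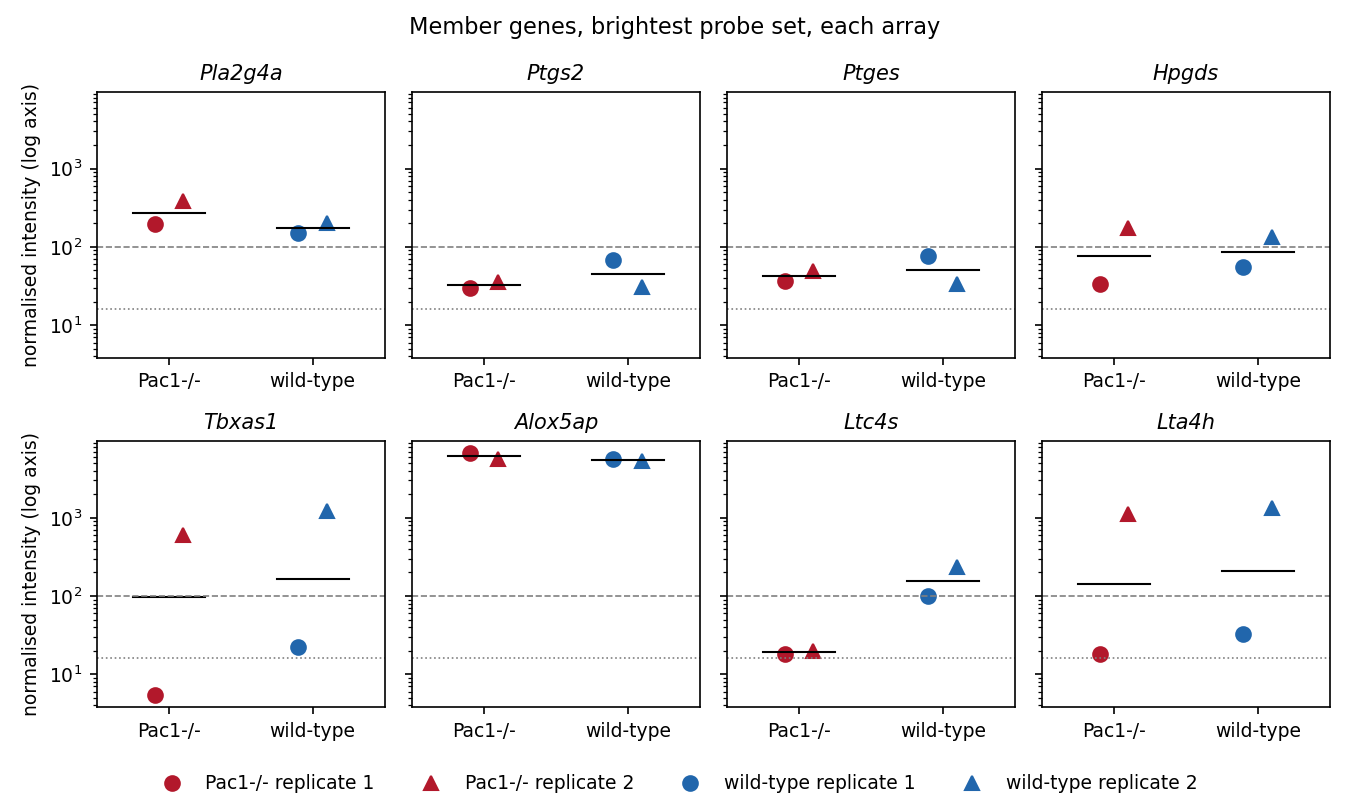
Normalised intensity of the brightest probe set of each of the 8 genes (log axis), for Pac1-/- arrays (left, red) and wild-type arrays (right, blue), with circles for replicate 1 and triangles for replicate 2. Horizontal bars are group means on the log2 scale with the floor applied, the dashed line marks 100 and the dotted line the floor of 16; Ltc4s separates by genotype, whereas Tbxas1 and Lta4h separate by replicate number.

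No member passed the test between genotypes. Of 7770 probe sets tested with limma, 0 had a Benjamini-Hochberg adjusted p under 0.05, which is 0% of them, and 263 (3.38%) had an unadjusted p under 0.05. Among the 4 tested members, 0 passed at either level, 2 were higher and 2 lower in Pac1-/- cells, and the median log2 difference, Pac1-/- minus wild-type, was -0.18, against 0.06 over all tested probe sets. With 2 arrays a group, the smallest two-sided p of an exact permutation test is 0.3333, so none is given for single genes. Under median centring of the arrays the median over all tested probe sets was 0.69, against 0.06 here, and differences on that scale are to be read against it.

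Ltc4s (probe set 1419692_a_at), the enzyme that commits leukotriene A4 to the cysteinyl leukotrienes, had the lowest signal in Pac1-/- cells relative to wild-type among the members. It read 18.4 and 20.2 on Pac1-/- replicates 1 and 2, against 101.0 and 233.4 on wild-type replicates 1 and 2. Both Pac1-/- arrays were below both wild-type arrays, which held for 13.4% of tested probe sets, although Ltc4s was not among those tested. Both Pac1-/- readings were close to the floor. As deposited, before normalisation between arrays, the readings were 17.0 and 11.4 in Pac1-/- cells and 110.9 and 235.9 in wild-type cells.

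The mean log2 intensity of Ltc4s was 4.27 ± 0.09 in Pac1-/- cells and 7.26 ± 0.86 in wild-type cells (SD, n = 2 each), a difference of -3.00. Within replicate 1 the difference was -2.46 and within replicate 2 it was -3.53, so that wild-type over Pac1-/- ratios were 5.49 and 11.6. Both ratios exceeded 4, a property of 41 of the 22626 probe sets of the table in this direction (0.181%) and of 1 of the 12 member probe sets. This fold was chosen after the values of Ltc4s were seen, so the count describes and does not test. Of the 22626 probe sets, 12918 read below 100 on every array. With the floor, a probe set dim on a wild-type array cannot reach this ratio, so 0.181% is not a share of readable probe sets. Ltc4s was below the intensity minimum, so it was not tested in the fit over 7770 probe sets. In a fit with no minimum, limma gave an unadjusted p of 0.0198 and an adjusted p of 0.500. In that fit 7.79% of all probe sets had an unadjusted p under 0.05. Because the Pac1-/- readings lie near the floor, the size is approximate, and with a floor of 64 the difference was -1.26.

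FLAP, the membrane protein that presents arachidonic acid to 5-lipoxygenase, is encoded by Alox5ap. Its probe set, 1452016_at, read 6666 and 5668 in Pac1-/- replicates 1 and 2, against 5587 and 5304 in wild-type replicates 1 and 2. Both Pac1-/- arrays were above both wild-type arrays, which held for 24.3% of tested probe sets, but the gap was small. The log2 difference was 0.18 ± 0.35 (limma's moderated SE, 2 cultures per genotype), at 0.25 within replicate 1 and 0.10 within replicate 2. By limma the 95% interval was -0.83 to 1.18 and the adjusted p was 0.947. A moderated SE draws partly on the variances of all tested probe sets, here and wherever an SE is given below. The arrays spanned less than in any other tested member, with log2 intensities of 12.59 ± 0.17 in Pac1-/- cells and 12.41 ± 0.05 in wild-type cells (SD).

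Lta4h encodes the hydrolase that makes leukotriene B4. Its brightest probe set, 1434790_a_at, read 18.2 and 1118 in Pac1-/- replicates 1 and 2, against 32.5 and 1333 in wild-type replicates 1 and 2. The replicate 2 arrays of both genotypes were high and the replicate 1 arrays of both were low. The genotype difference was -0.54 ± 2.96 on the log2 scale (SE, with a 95% interval of -9.02 to 7.93 and an adjusted p of 0.992 by limma). The fit took genotype alone, so the step between the replicate numbers widened this interval, which does not place the gene. Within replicate 1 the difference was -0.84, between dim readings, and within replicate 2 it was -0.25. The same gene gave a different picture on its other probe sets. Probe set 1426807_at read 38.5 and 91.6 in Pac1-/- cells, against 29.6 and 31.1 in wild-type cells, and 1453528_at read 29.3 and 41.3 in Pac1-/- cells, against 71.4 and 25.4 in wild-type cells. Neither reached 100 on any array, and neither had replicate 2 at least 4-fold above replicate 1 in a genotype. On 1426807_at, which was not tested, both Pac1-/- arrays were above both wild-type arrays, as for 24.3% of tested probe sets. With 1 array left out, the difference of the brightest probe set ran from -3.36 to 2.43. Such a fit leaves the replicate numbers unequal between the genotypes. This range therefore carries the step between the replicate numbers and does not measure the stability of the genotype difference. Under median centring the difference was 0.03, where the median over all tested probe sets was 0.69.

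Pla2g4a (probe set 1448558_a_at), the gene of cytosolic phospholipase A2 alpha, whose activity is the entry to both branches, read 193.4 and 383.0 in Pac1-/- replicates 1 and 2, against 152.2 and 202.3 in wild-type replicates 1 and 2. The Pac1-/- array was the higher one within each replicate number, but the genotypes overlapped. The log2 difference was 0.63 ± 0.52 (limma's moderated SE, 2 cultures per genotype), at 0.35 within replicate 1 and 0.92 within replicate 2. By limma the 95% interval was -0.85 to 2.12 and the adjusted p was 0.866. Among the tested members Pla2g4a had the lowest unadjusted p, 0.295 by limma.

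Of the cyclooxygenases, the inducible Ptgs2 was represented by 2 probe sets, both dim. Probe set 1417263_at read 29.8 and 35.4 in Pac1-/- replicates 1 and 2, against 67.2 and 31.0 in wild-type replicates 1 and 2. Probe set 1417262_at read 25.8 and 44.5 in Pac1-/- cells, against 36.0 and 9.5 in wild-type cells. Wild-type replicate 1 was the highest array on the brighter probe set and Pac1-/- replicate 2 on the dimmer one, and the mean differences had opposite signs, -0.49 and 0.50 on the log2 scale. A reading below 100 does not show that Ptgs2 mRNA was absent.

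The terminal synthases of the prostanoid branch differed in pattern. Ptges, the microsomal prostaglandin E synthase, read 37.2 and 49.1 in Pac1-/- replicates 1 and 2, against 76.6 and 33.5 in wild-type replicates 1 and 2, on its brighter probe set, 1449450_at. Its dimmer probe set read between 6.1 and 20.8 on all arrays, at or near the floor. On the brighter probe set the difference was -1.04 within replicate 1 and 0.55 within replicate 2, so no direction was shared.

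Hpgds (probe set 1421492_at), the hematopoietic prostaglandin D synthase of mast cells, read 34.0 and 176.2 in Pac1-/- replicates 1 and 2, against 55.4 and 131.9 in wild-type replicates 1 and 2. The replicate 2 arrays were the higher ones in either genotype, with both replicate 1 readings below 100. On the log2 scale the genotype difference was -0.71 within replicate 1 and 0.42 within replicate 2, opposite in sign.

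Tbxas1 (probe set 1416827_at), the thromboxane A synthase, is a cytochrome P450 best known from platelets and macrophages. It read 5.5 and 600.5 in Pac1-/- replicates 1 and 2, against 22.6 and 1215 in wild-type replicates 1 and 2. As for Lta4h, both replicate 2 arrays were high and both replicate 1 arrays were low, with Pac1-/- replicate 1 under the floor. The wild-type array was the brighter one within each replicate number, by 1.41-fold with the floor applied and by 2.02-fold. The log2 difference was -0.76 ± 2.88 (limma's moderated SE, 2 cultures per genotype). By limma the 95% interval was -9.00 to 7.48 and the adjusted p was 0.982. As for Lta4h, the step between the replicate numbers widened the interval. With 1 array left out the difference lay between -3.65 and 2.24, a range that carries the step between the replicate numbers, as for Lta4h.

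**Figure D2:**
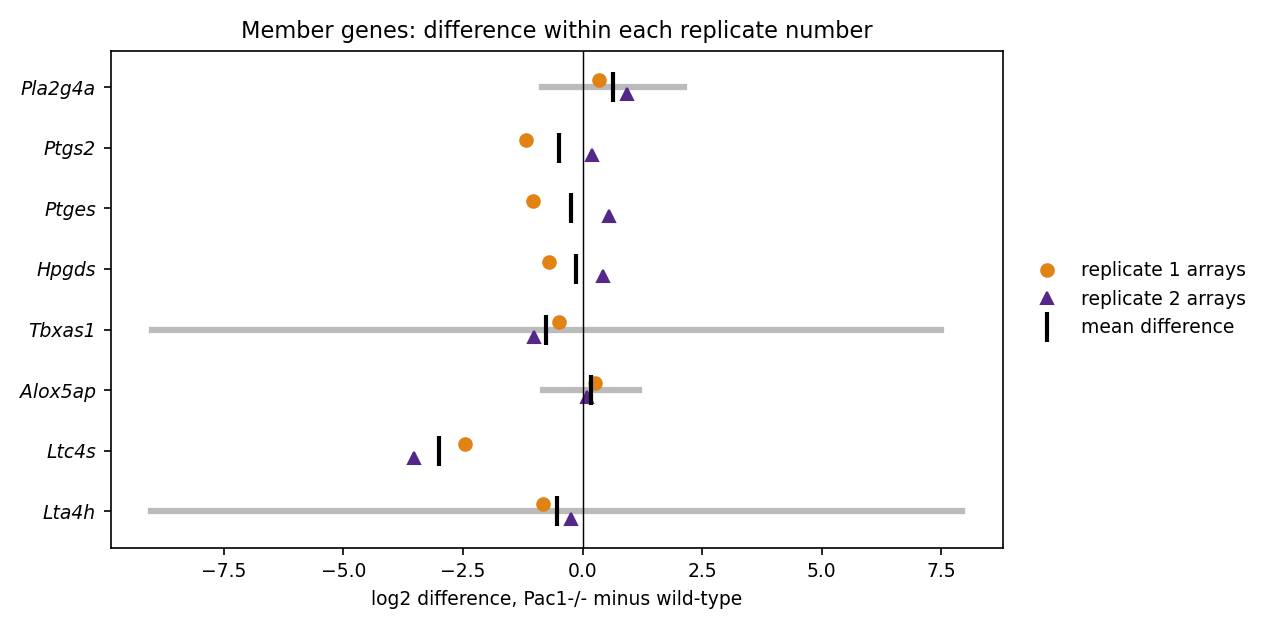
Log2 difference, Pac1-/- minus wild-type, for the 8 genes: circles for the replicate 1 arrays, triangles for the replicate 2 arrays, black bars for the mean, and grey lines for limma's 95% confidence interval of the 4 tested genes. Ltc4s lies at -2.46 and -3.53, while Ptgs2, Ptges and Hpgds have differences of opposite sign in the 2 replicate numbers.

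Replicate 2 exceeded replicate 1 at least 4-fold in both genotypes for Tbxas1 and for the brightest Lta4h probe set. The same held for 5.61% of tested probe sets, and 5.88% were at least 4-fold lower on replicate 2. Both genes passed the intensity minimum through their replicate 2 arrays alone, so that their place among the tested members is not independent of this step and nothing is read from their number. Their replicate 1 readings were between 5.5 and 32.5, below a readable signal, and no size is given for the step. Ltc4s, which the minimum left out, and Alox5ap did not show it.

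**Figure D3:**
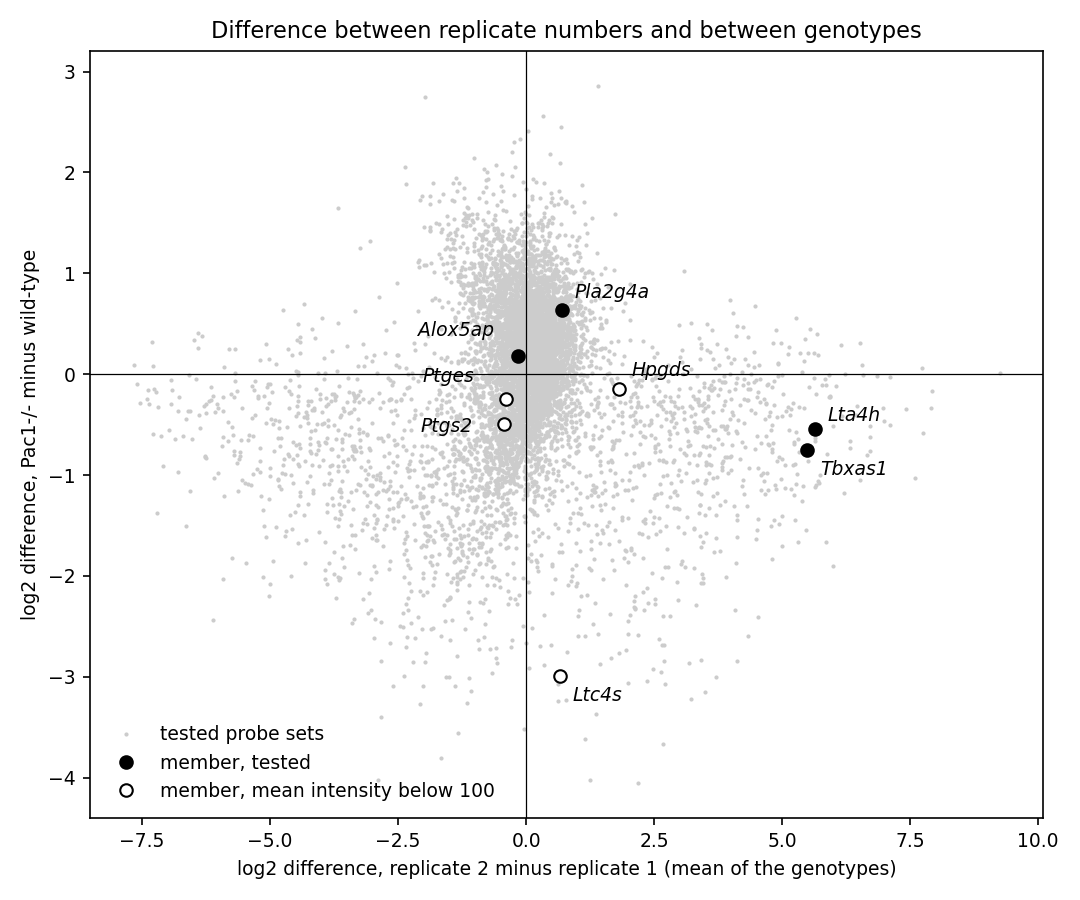
Each grey point is 1 of 7770 tested probe sets, placed by its log2 difference of replicate 2 minus replicate 1, averaged over the genotypes (x axis), and of Pac1-/- minus wild-type (y axis). Black points are the 4 tested members and open circles the 4 members below a mean intensity of 100; Tbxas1 and Lta4h lie far to the right near the horizontal axis, and Ltc4s lies low near the vertical axis.

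Pac1-/- replicate 2 gives the larger of the Ltc4s ratios, and without it the Ltc4s difference was -2.94. The ratio of 3′ to 5′ signal of the beta-actin control was 292.8 and 54.8 on Pac1-/- replicates 1 and 2, against 108.6 and 1.58 on wild-type replicates 1 and 2, and so was higher on the Pac1-/- array within each number. The GAPDH ratio was 1.36 and 190.8 on Pac1-/- replicates 1 and 2, against 0.80 and 0.84 on the wild-type arrays. The part of 3′ bias in the Ltc4s, Tbxas1 and Lta4h results was not tested. The Dusp2 probe set, at 109.3 and 75.5 in Pac1-/- cells and 167.2 and 90.7 in wild-type cells, did not separate the genotypes. Where that probe set lies relative to the deletion is not known here, so it does not check the labels.

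Markers of mast cells and of other blood cells were read on the same arrays, since thromboxane and leukotriene enzymes are shared by several myeloid cell types. Of 10 mast cell markers, 8 had normalised readings of 100 or more on all arrays (Kit, Fcer1a, Cpa3, Cma1, Tpsb2, Hdc, Gata2 and Mitf), and the summed level was 49283 and 39226 in Pac1-/- cells, against 45504 and 43227 in wild-type cells. The sum is carried by Fcer1a, Cpa3 and Cma1, and single markers differed from it. Tpsb2, a mast cell tryptase, read 6588 and 475.8 in Pac1-/- replicates 1 and 2, against 5838 and 7259 in wild-type replicates 1 and 2, so that Pac1-/- replicate 2 alone was low. Mcpt4, a mast cell chymase, read 60.4 and 22.0 in Pac1-/- cells, against 75.0 and 137.0 in wild-type cells. It reached 100 on 1 array only and was not tested. Both its Pac1-/- arrays were below both wild-type arrays, as held for 13.4% of tested probe sets. Kit, Mitf and Cma1 went the other way, with both Pac1-/- arrays above both wild-type arrays, as held for 24.3%. For Cma1 the gap was small, at 10464 and 11000 in Pac1-/- cells, against 10267 on both wild-type arrays. As deposited the Cma1 readings overlapped, at 9140 and 14118 in Pac1-/- cells and 8030 and 10988 in wild-type cells. Ms4a2, the FceRI beta chain, was low on the replicate 1 arrays and high on the replicate 2 arrays, as Tbxas1 and Lta4h were, at 41.9 and 1502 in Pac1-/- cells and 142.6 and 3261 in wild-type cells.

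The summed level of 10 macrophage markers ran the other way, at 6004 and 499.0 in Pac1-/- replicates 1 and 2, against 7927 and 586.3 in wild-type replicates 1 and 2. On the replicate 1 arrays it came almost wholly from Cd68, which many myeloid cells express, at 5638 in Pac1-/- and 7512 in wild-type cells. On the replicate 2 arrays Cd68 read 120.6 in Pac1-/- and 118.3 in wild-type cells. Cd68 and Adgre1 had normalised readings of 100 or more on all arrays, with Adgre1 at 217.0 to 250.5. Csf1r reached 100 on wild-type replicate 2 alone, and Marco, C1qa and C1qc were at or under the floor on all arrays. Of 10 neutrophil markers 0 read at 100 or more on all arrays and the sum was between 253.6 and 547.8, and of the 7 basophil and eosinophil markers measured, of 8 listed, 0 did so and the sum was between 148.9 and 211.9. Of the 6 megakaryocyte and platelet markers measured, of 8 listed, Itga2b and Gp5 did, while Pf4, Ppbp, Gp9 and Gp1bb were below 100 on all arrays. The sum of the 6 was 2119 and 727.4 in Pac1-/- cells, against 2336 and 3503 in wild-type cells. It came mostly from Itga2b, at 1721 and 424 in Pac1-/- cells and 2037 and 3170 in wild-type cells. The part of other cell types in the member values was not tested. In these bulk samples fewer cells of a type and less RNA per cell cannot be told apart.

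The wider eicosanoid pathway was described by 84 further genes in 4 groups. Of these, 69 had a probe set and 18 were bright enough to test. Their median log2 difference was -0.03, with 9 higher and 9 lower in Pac1-/- cells, and 0 passed limma's test at the unadjusted or the adjusted level. Both Pac1-/- arrays were above both wild-type arrays for 2 of the 18 and below them for 1, against 24.3% and 13.4% of all tested probe sets.

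Among genes of phospholipid and arachidonate handling, 4 of 11 tested were higher and 7 lower (median -0.24). The lowest p belonged to Lpcat3, which places arachidonate into phospholipids, at -1.48 ± 1.33 (SE). It was lower in Pac1-/- cells within both replicate numbers, with log2 differences of -1.41 and -1.54, but the genotypes overlapped. The desaturase gene Fads1 had a difference of 0.52 ± 0.48, the lipase gene Pnpla2 of -0.53 ± 0.58 and the elongase gene Elovl5 of 0.25 ± 0.39. Fads1, Pnpla2 and Elovl5 each had opposite signs in the 2 replicate numbers.

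Other prostanoid and lipoxygenase enzymes were split, with 2 of 4 tested genes higher and 2 lower (median 0.41). Cotl1, a protein that binds 5-lipoxygenase and stabilises it, read 1057 and 654.5 in Pac1-/- replicates 1 and 2, against 554.8 and 373.1 in wild-type replicates 1 and 2. The log2 difference was 0.87 ± 0.47 (SE), and limma's adjusted p was 0.866. Both Pac1-/- arrays were above both wild-type arrays, as for 24.3% of tested probe sets. Mgst2, a microsomal glutathione transferase of the same protein family as Ltc4s that can also form leukotriene C4, read 157.9 and 369.0 in Pac1-/- replicates 1 and 2, against 61.2 and 222.6 in wild-type replicates 1 and 2. Its difference was 1.05 ± 0.89 (SE, with a limma adjusted p of 0.873), at 1.37 within replicate 1 and 0.73 within replicate 2. The sign was opposite to that of Ltc4s, and the genotypes overlapped for Mgst2. The glutathione peroxidases Gpx1 and Gpx4, which reduce lipid hydroperoxides, had differences of -0.31 ± 0.35 and -0.06 ± 0.90.

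Of the export and breakdown genes only Abcc1, an exporter of leukotriene C4, was bright enough to test. It read 383.6 and 649.2 in Pac1-/- cells, against 333.5 and 742.7 in wild-type cells, a log2 difference of 0.00 ± 0.61 (SE). The tested receptors were the prostaglandin E2 receptor genes Ptger3 and Ptger4, with differences of 0.26 ± 0.49 and 0.20 ± 0.44. Ptger3 read between 710.4 and 1318 and Ptger4 between 653.7 and 1089 over the 4 arrays, and the genotypes overlapped for both.

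**Figure D4:**
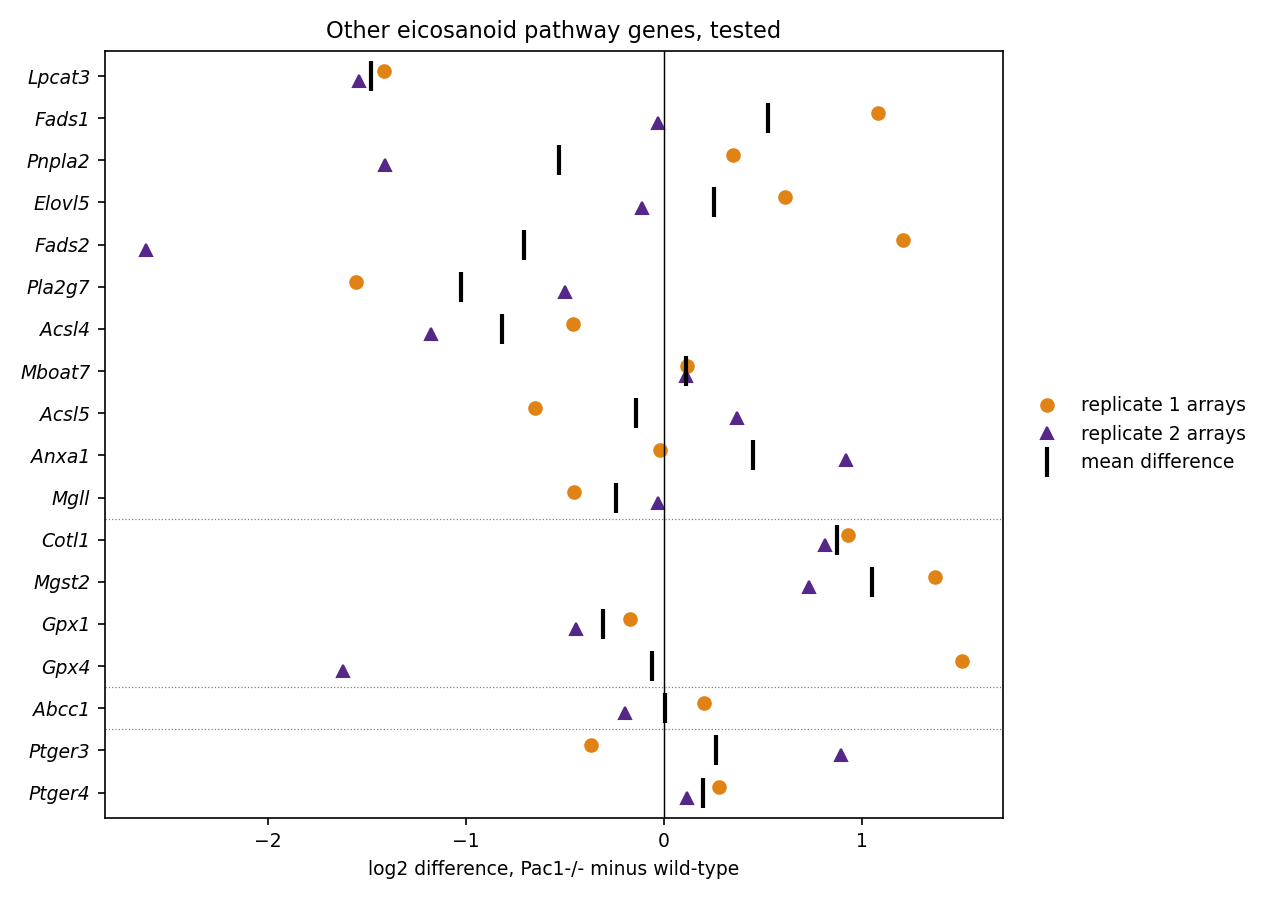
Log2 difference, Pac1-/- minus wild-type, of the 18 tested genes of the wider pathway, in 4 groups divided by dotted lines (top to bottom: phospholipid and arachidonate handling, other prostanoid and lipoxygenase enzymes, export, receptors). Circles are the replicate 1 arrays, triangles the replicate 2 arrays and black bars the mean. Cotl1, Mgst2, Mboat7 and Ptger4 lie right of 0 in both replicate numbers. Lpcat3, Pla2g7, Acsl4, Mgll and Gpx1 lie left of it in both. The replicate 2 point of Mgll, at -0.03, compares a Pac1-/- reading raised to the floor of 16 with a wild-type reading of 16.4. It gives no direction.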

How the data were processed

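Total RNA, 500 to 1000 ng, was amplified and hybridised as biotinylated cRNA to 4 arrays, per the labels' protocols. The deposited value is a linear intensity for each probe set. The submitters' processing notes name MAS5, with no version. The trimmed means of the arrays, leaving out 2% at either end, were all near 150.1, while their medians differed. The series' design text instead describes RMA and limma 1.3.12; RMA values were not used here.

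The 64 control probe sets were left out, leaving 22626 probe sets. Of these, 20380 had 1 gene symbol, 691 several and 1555 none. Values were quantile normalised, floored at 16 and log2 transformed, and 7770 probe sets with a mean of at least 100 entered limma 3.58.1 (functions lmFit and eBayes, genotype alone, a two-sided test, and Benjamini-Hochberg adjustment over all 7770) in R 4.3.3, with 2 residual and 1.71 prior degrees of freedom. The fit was run on simulated data with independent noise. Recovery of the changes put in was required only where the spread was set well below that of these data. The shared deviations of same-numbered arrays were not simulated. Each gene is represented by its brightest probe set. Per the design text the cultures were independent. The number of arrays limits the precision. Members and lists were chosen with earlier results of these data known. All members are named, with up to 4 tested genes of lowest p per pathway group. Genes named outside this rule were chosen after their values were seen. Promoters are from RefSeq (GRCm38.p6; 9 of 10 genes matched, Alox5ap not). The plots used Python 3.11.15 and matplotlib 3.10.9. The alternatives were the values as deposited, median centring, other minimums and floors, an intensity trend, a block for replicate number, omission of each array in turn, averaging probe sets, and other detection marks.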

Additional observations from a re-analysis of the deposited data

How the results depend on the processing

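The counts of all probe sets, of members and of pathway genes past limma's adjusted test were 0 under every alternative run. At an unadjusted p under 0.05, the count over all probe sets, 263, was 1762 with no minimum (with many probe sets at the floor), 110 with a minimum of 200, and between 87 and 380 with 1 array left out. The count of members was 1, Ltc4s, with no minimum, and between 0 and 1 with 1 array left out. The count of other pathway genes was 1 under median centring and 2 with no minimum. The members' median difference was -0.14 on the values as deposited, 0.19 under median centring, -0.37 with no minimum and 0.024 with a floor of 64. With 1 array left out it was between -2.94 and 1.53. The members above the minimum changed with the setting, being 5 under median centring, 8 with no minimum and 4 to 6 with 1 array left out. The -2.94 is the value of Ltc4s, which entered without Pac1-/- replicate 2. The pathway median was 0.73 under median centring, and between -0.088 and 0.24 with 1 array left out. The Lta4h difference was 0.033 under median centring and between -3.36 and 2.43 with 1 array left out, and that of Tbxas1 was between -3.65 and 2.24. For both genes, leaving out 1 array mixes the step between the replicate numbers into the difference. Neither range measures the stability of the genotype difference, and the members' median in these fits includes both genes. Ltc4s read lower in Pac1-/- cells under all of them, between -3.74 and -2.46 with 1 array left out and between -3.29 and -1.26 otherwise. Pla2g4a and Alox5ap kept their sign throughout. Under median centring they were at 1.27 and 0.95, where the median over all tested probe sets was 0.69. All values given here under median centring are to be read against that median. With a mark of 200 in place of 100, 1 member, Alox5ap, was readable on every array, against 2.

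The genotypes share replicate numbers, but the labels do not say that a number marks a shared animal, batch or day, and 2 pairs are too few to settle it. Same-numbered arrays deviated together (r = 0.75 over 7770 probe sets). With the replicate block, 899 probe sets and 1 other pathway gene had an unadjusted p under 0.05, and 0 passed the adjusted test. Limma's unadjusted p with the block was 0.291 for Lta4h and 0.154 for Tbxas1, against 0.864 and 0.806 without it. No step between the replicate numbers can be assigned to culture or to array, and dim signals limit Ptgs2, Ptges, Hpgds and Ltc4s.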

Other observations

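Several genes of fatty acid and arachidonate handling also differed between the replicate numbers, 3 of 18 tested pathway genes being at least 4-fold higher and 2 at least 4-fold lower on replicate 2 in both genotypes, against 5.61% higher and 5.88% lower over all tested probe sets. Anxa1, Pla2g7, Lpcat3 and Mgll passed the intensity minimum through the replicate number in which they were high, so nothing is read from these counts. Anxa1, the gene of annexin A1, an inhibitor of phospholipase A2, read 23.4 and 1515 in Pac1-/- replicates 1 and 2, against 23.7 and 802.1 in wild-type replicates 1 and 2. The platelet-activating factor hydrolase gene Pla2g7 read 45.5 and 819.5 in Pac1-/- cells, against 133.5 and 1158 in wild-type cells, and Lpcat3 read 27.0 and 143.2 in Pac1-/- cells, against 72.0 and 416.7 in wild-type cells.

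Acsl4, which activates arachidonic acid for storage in phospholipids, and Mgll, a lipase that can free it, ran the other way. The brightest Mgll probe set read 2351 and 6.5 in Pac1-/- replicates 1 and 2, against 3216 and 16.4 in wild-type replicates 1 and 2. Another Mgll probe set showed the same step, at 569.9 and 12.2 in Pac1-/- cells and 795.2 and 50.9 in wild-type cells. The remaining Mgll probe sets read below 100 on every array. The brightest Acsl4 probe set read 5040 and 157.8 in Pac1-/- cells, against 6915 and 355.9 in wild-type cells. On another Acsl4 probe set the log2 difference of replicate 2 minus replicate 1 was -0.62 in Pac1-/- and -2.77 in wild-type cells, and on one more it was 0.80 in Pac1-/- and -0.87 in wild-type cells. Probe sets of Acsl4 thus disagreed on the step between the replicate numbers, as those of Lta4h did. The part of 3′ bias in these steps was not tested.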
